A study of Mus musculus with 12 samples.

Results

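Thymic iNKT17 cells lacking Hivep3 were compared with iNKT17 cells of C57BL/6 mice over 54311 of the 63309 regions in the accessibility table. A region entered when its linear mean, in normalised transposase insertions per kb, reached 5 in either genotype. Where the other genotype lay under 5, the region entered only through the genotype in which it was higher. Chromatin accessibility was measured by ATAC-seq in 3 thymic iNKT subsets (iNKT1, iNKT2 and iNKT17) of 2 genotypes, with 2 libraries in each of the 6 groups. The mice were 8 to 9 weeks old, the Hivep3-/- mice had been backcrossed to C57BL/6, and the 4 iNKT17 libraries are C57BL/6 replicates 1 and 2 and Hivep3-/- replicates 1 and 2. The titles number single mice, whereas the methods describe thymi that were pooled before sorting, so the p-values measure the spread between libraries of unknown pool size. Per the methods, the subsets were sorted one by one, combined for transposition and separated again by a second sort, so libraries of different subsets with the same genotype and number may share a transposition reaction. The iNKT17 gate took cells positive for ICOS and for CD138, the product of Sdc1.

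iNKT cells recognise lipids on CD1d through a nearly invariant T cell receptor and take up effector fates while still in the thymus. The iNKT17 subset makes IL-17, whereas iNKT1 cells depend on T-bet and iNKT2 cells on GATA3 and high PLZF. HIVEP3 is a large zinc finger protein that can bind κB-like DNA, the same kind of element that NF-κB dimers bind, and also acts as an adaptor in signalling. In ATAC-seq a transposase cuts open chromatin, so the insertion density of a region reports how accessible promoters, enhancers and other regulatory DNA are, not how much RNA is made.

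Of the letter patterns searched, a κB-type one, GGGANTTTC on either strand, was the most unequally spread between regions that rose and regions that fell, so 9 matches in risen regions are printed first. The 6 at Gadd45b, Pdcd1lg2, Nedd9, N4bp1, Laptm5 and Bcl2l15 lie in the largest rises among strong regions that hold the pattern, and the 3 at Nr4a2, Smad3 and Ago2 lie in risen regions of the gene lists described below. Sequences are the forward strand of mm10, 5′ to 3′, with the matched letters in capitals; a match on the reverse strand appears as its reverse complement. A match of letters is a description and not evidence that a protein was bound.
Gadd45b: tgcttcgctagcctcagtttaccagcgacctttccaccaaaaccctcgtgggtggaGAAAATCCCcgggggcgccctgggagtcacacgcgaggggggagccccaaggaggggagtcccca
Pdcd1lg2: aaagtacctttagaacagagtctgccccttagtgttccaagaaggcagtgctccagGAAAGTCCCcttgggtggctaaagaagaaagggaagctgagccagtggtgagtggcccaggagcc
Nedd9: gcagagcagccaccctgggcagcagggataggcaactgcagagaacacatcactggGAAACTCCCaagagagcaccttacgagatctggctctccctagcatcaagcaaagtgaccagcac
N4bp1: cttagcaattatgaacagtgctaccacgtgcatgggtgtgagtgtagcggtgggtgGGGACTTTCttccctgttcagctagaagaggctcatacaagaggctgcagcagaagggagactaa
Laptm5: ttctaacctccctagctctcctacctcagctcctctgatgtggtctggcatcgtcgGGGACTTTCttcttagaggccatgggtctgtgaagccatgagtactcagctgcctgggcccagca
Bcl2l15: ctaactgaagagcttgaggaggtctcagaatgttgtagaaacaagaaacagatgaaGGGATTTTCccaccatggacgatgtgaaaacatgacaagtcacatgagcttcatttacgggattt
Nr4a2: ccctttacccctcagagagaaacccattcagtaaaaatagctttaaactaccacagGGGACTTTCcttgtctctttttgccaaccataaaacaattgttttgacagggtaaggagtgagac
Smad3: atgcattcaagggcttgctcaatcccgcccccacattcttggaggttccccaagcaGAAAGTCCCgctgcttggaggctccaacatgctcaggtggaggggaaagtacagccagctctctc
Ago2: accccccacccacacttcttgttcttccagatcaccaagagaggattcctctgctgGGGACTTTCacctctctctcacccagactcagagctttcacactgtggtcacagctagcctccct
These 9 windows are at chr10:80932766-80932886 (Gadd45b), chr19:29418024-29418144 (Pdcd1lg2), chr13:41484235-41484355 (Nedd9), chr8:86864928-86865048 (N4bp1), chr4:130930987-130931107 (Laptm5), chr3:103850865-103850985 (Bcl2l15), chr2:57105731-57105851 (Nr4a2), chr9:63698860-63698980 (Smad3) and chr15:73146835-73146955 (Ago2). The Laptm5 and Bcl2l15 matches are in promoter regions (within 1000 bp of a transcription start site), the Gadd45b and Nr4a2 matches are intergenic and the other 5 are in introns. At Pdcd1lg2, which encodes PD-L2, the log2 accessibility was 4.24 and 4.51 in the C57BL/6 libraries and 5.50 and 5.43 in the Hivep3-/- libraries. At Gadd45b, a stress and NF-κB response gene, it was 5.62 and 5.92 against 6.62 and 7.15. Changes ran from 0.74 at Ago2 to 1.18 at Smad3 on the log2 scale (limma, adjusted p from 0.00582 to 0.0940). Leaving out a library took the adjusted p above 0.1 at Gadd45b, Nedd9, N4bp1, Laptm5 and Nr4a2 but not at the other regions. Both Hivep3-/- libraries were above both C57BL/6 libraries at all 9 regions. This follows from choosing risen regions, as it held at all of them, and the genotypes did not overlap at 44.7% of all tested regions.

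The targeted gene itself gave no check on the genotype from its promoter. At the Hivep3 start site the log2 accessibility was 6.64 and 6.53 in C57BL/6 and 6.50 and 6.51 in Hivep3-/- iNKT17 cells (change -0.08 ± 0.08 SE, adjusted p = 0.698). The structure of the deleted allele is not given in the sources used here, and an allele that lacks coding sequence can keep an open promoter. Of the 12 tested regions at the Hivep3 locus 1 rose, an intronic region with values of 1.35 and 1.69 against 2.19 and 3.23 (change 1.19 ± 0.33, adjusted p = 0.0802), and its call was lost without C57BL/6 replicate 1 (adjusted p = 0.387) or without C57BL/6 replicate 2 (adjusted p = 0.144).

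Promoters of iNKT17 markers were open in both genotypes. Promoter regions of the 8 iNKT17 markers summed to 479 and 476 insertions per kb in C57BL/6 and 468 and 481 in Hivep3-/- iNKT17 cells, against 80.4 in C57BL/6 iNKT1 and 83.5 in iNKT2 cells. None of the 8 was called between genotypes, and Il1r1, the IL-1 receptor, stood at 6.22 and 6.11 against 6.19 and 6.14 on the log2 scale. Promoters of the 6 iNKT1 markers summed to 299 and 310 against 297 and 298, with 350 in C57BL/6 iNKT1 and 232 in iNKT2 cells. Most of each iNKT17 sum was Il2rb, with means of 274 in C57BL/6 and 264 in Hivep3-/- against 161 in C57BL/6 iNKT1 cells. Ifng, Klrd1 and Xcl1 were under 5 in both genotypes and not tested, so the sum says little of an iNKT1 signal. Promoters of the 6 iNKT2 markers summed to 224 and 218 against 213 and 204, with 294 in C57BL/6 iNKT1 and 376 in iNKT2 cells. Of these, 2 fell by limma, Il4 (change -0.70, adjusted p = 0.0339) and Il13 (change -0.60, adjusted p = 0.0779). Only Pax5 and Ebf1 of 6 B cell markers had a promoter region in the table, summing to 26.9 and 29.8 against 32.7 and 36.2, and only Cd14 of 5 myeloid markers, at 17.3 and 18.4 against 22.6 and 13.2. The part of such cells in the results was not tested. As these are bulk libraries, a change in the make-up of the sorted cells and a change in each cell cannot be told apart.

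Read totals are not in the files. The Hivep3-/- libraries took 85 and 73 distinct values at or below the median of the table against 142 and 134 in C57BL/6, and 571 and 816 regions sat at the lowest value against 190 and 272. The median difference between replicates was 0.17 on the log2 scale in C57BL/6 and 0.20 in Hivep3-/-, and the genotype means differed by a median of 0.17. The part of depth in the results was not tested.

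Accessibility changed in both directions at a small share of regions. At an adjusted p under 0.1 with a change of at least 1.5-fold, 982 regions rose in Hivep3-/- iNKT17 cells (1.81% of tested regions) and 879 fell (1.62%). The libraries of the 2 genotypes did not overlap at any of these 1861 regions, which was also true of 44.7% of all tested regions, so non-overlap alone separates little with 2 libraries a group. Changes of at least 3-fold were 72 rises (0.133%) and 75 falls (0.138%). With the replicate number as a block the counts were 1667 rises and 1435 falls. Without C57BL/6 replicate 1 they were 204 and 227, without Hivep3-/- replicate 2 they were 425 and 564, and without C57BL/6 replicate 2 the falls were 423.

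Among the 26116 strong regions, those with a linear mean of at least 20 over the 4 libraries, 263 rose by 1.5 to 3-fold (1.01%) and 168 fell by as much (0.643%). Without C57BL/6 replicate 1 these counts were 53 and 58, without Hivep3-/- replicate 2 they were 127 and 109, and without C57BL/6 replicate 2 the falls were 111. Called changes thinned out with level. Rises made up 2.94% of regions with a linear mean under 10, 1.51% of those from 20 to 50 and 0.300% of those at 100 or more, and falls 2.84%, 1.07% and 0.0499%. At the highest level 12 regions rose and 2 fell out of 4005.

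**Figure D1:**
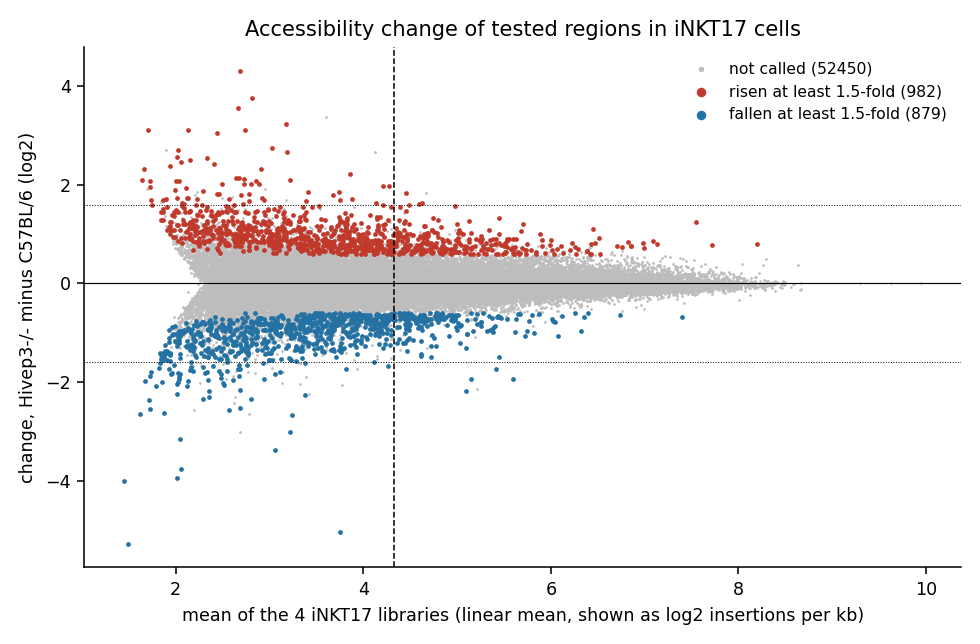
Change in Hivep3-/- against C57BL/6 iNKT17 cells (log2 of the ratio, y axis) against the linear mean of the 4 libraries shown on a log2 scale (x axis) for the 54311 tested regions, with the 982 risen and 879 fallen regions coloured, the level of 20 insertions per kb marked by a dashed line and 3-fold changes by dotted lines. Calls are densest at low levels, and at 100 insertions per kb or more there are 12 rises and 2 falls.

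The changes lay away from promoters. Promoter regions made up 40.3% of tested regions but 18.7% of the risen and 15.7% of the fallen regions, and introns made up 30.8%, 52.0% and 42.3%. Among strong regions the promoter share was 56.7% of those tested, 25.1% of those that rose by 1.5 to 3-fold and 20.8% of those that fell. The median distance to a protein-coding start site was 4.15 kb for tested, 8.67 kb for risen and 15.6 kb for fallen regions. Median GC content was 50.6%, 48.5% and 48.6%. Chromosome 1 (2.59%) and chromosome 4 (2.55%) had the highest shares of risen regions. Chromosome 4 carries Hivep3, and within 20 Mb either side of the gene 40 of 1497 tested regions rose (2.67%) and 18 fell (1.20%). Within 10 Mb 9 of 565 rose (1.59%) and 6 fell (1.06%). Within 5 Mb 7 of 308 rose (2.27%) and 3 fell (0.974%). The risen regions of Capzb and Laptm5 and the fallen region of Runx3, described below, lie within the 20 Mb. After backcrossing, DNA of the strain of origin can remain around a targeted gene, and its part in these counts was not tested. The X chromosome held 1.90% of tested, 1.93% of risen and 3.19% of fallen regions, and 11 of the 168 strong falls (6.55%).

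The 10 largest rises among strong regions spanned 2.37 to 2.95-fold. At the promoter of Pgk1 (chrX:106186746-106187245), a glycolytic enzyme, log2 accessibility was 6.77 and 6.82 in C57BL/6 and 8.03 and 8.04 in Hivep3-/- cells, a change of 1.24 ± 0.06 (adjusted p = 1.19e-06). The replicates of each genotype differed by at most 0.05, and the same region rose by 1.05 in iNKT1 and 1.13 in iNKT2 cells. Pgk1 promoter sequence is common in gene targeting constructs; whether the Hivep3 allele carries it is not given in the sources used here, and its part in this value was not tested. At the promoter of Mid1, a microtubule-associated ubiquitin ligase on the X chromosome, the values were 3.96 and 3.92 against 5.31 and 5.21 (change 1.32 ± 0.16, adjusted p = 0.00198).

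The other 8 of these rises lay at or near genes of various roles. A region 174 kb from Cxcr4 (chr1:128765576-128766075), the receptor for CXCL12, went from 3.41 and 3.91 to 4.85 and 5.02 (change 1.27 ± 0.20, adjusted p = 0.00780). The promoter of Fes (chr7:80387774-80388273), a non-receptor tyrosine kinase of blood cells, went from 4.27 and 4.46 to 5.54 and 5.71 (change 1.26 ± 0.24, adjusted p = 0.0196), while the change was 0.11 in iNKT1 and -0.30 in iNKT2 cells. The difference from iNKT2 passed the test (1.56 ± 0.34, adjusted p = 0.0444). An exon of Fosl2, which encodes the AP-1 factor FRA2, went from 3.44 and 3.58 to 4.57 and 5.38 (change 1.46, adjusted p = 0.0479). Regions near Gpr132 (1.29), a lysolipid-responsive receptor, Nfkbid (1.29), an atypical IκB, Myo1g (1.32), a myosin of blood cells, and Rgcc (1.56), a cell cycle regulator, also rose, as did the promoter shared by Cyb5d1 and Naa38 (1.54). Rgcc was the least stable, with 3.22 and 4.65 in C57BL/6 against 5.28 and 5.71, and an adjusted p of 0.566 without C57BL/6 replicate 1. Pgk1, Mid1 and Cxcr4 kept an adjusted p under 0.1 whichever library was left out, and each of the other 7 lost its call without C57BL/6 replicate 1 (adjusted p from 0.153 to 0.566).

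The 10 largest falls among strong regions spanned 2.31 to 2.82-fold. In a gene-poor stretch between Rell1 and Pgm2 on chromosome 5, a region at chr5:64040664-64041163 went from 5.84 and 6.18 to 4.50 and 4.52 (change -1.50 ± 0.14, adjusted p = 0.000429), and the promoter of the long non-coding RNA 5830416I19Rik at chr5:64044693-64045192 from 5.21 and 5.32 to 4.01 and 3.99 (change -1.26 ± 0.12, adjusted p = 0.000523). An intron of Unc5c, a netrin receptor, went from 5.32 and 5.23 to 3.80 and 3.78 (change -1.49, adjusted p = 0.00693). A region 408 kb from Jarid2, a partner of the Polycomb repressive complex, went from 5.46 and 5.56 to 4.37 and 4.24 (change -1.21, adjusted p = 0.00217). These 4 regions kept an adjusted p under 0.1 whichever library was left out. The other 6 lay in introns of Firre (-1.47), Ccnjl (-1.43) and Slc25a13 (-1.31), at the promoter of Garem1 (-1.37) and near Lmo4 (-1.26) and Cog2 (-1.21), and each was above 0.1 without C57BL/6 replicate 1, with adjusted p from 0.108 to 0.236. The fall near Cog2 was not shared by iNKT1 cells, where the change was 0.56 (difference -1.76 ± 0.30, adjusted p = 0.0102).

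**Figure D2:**
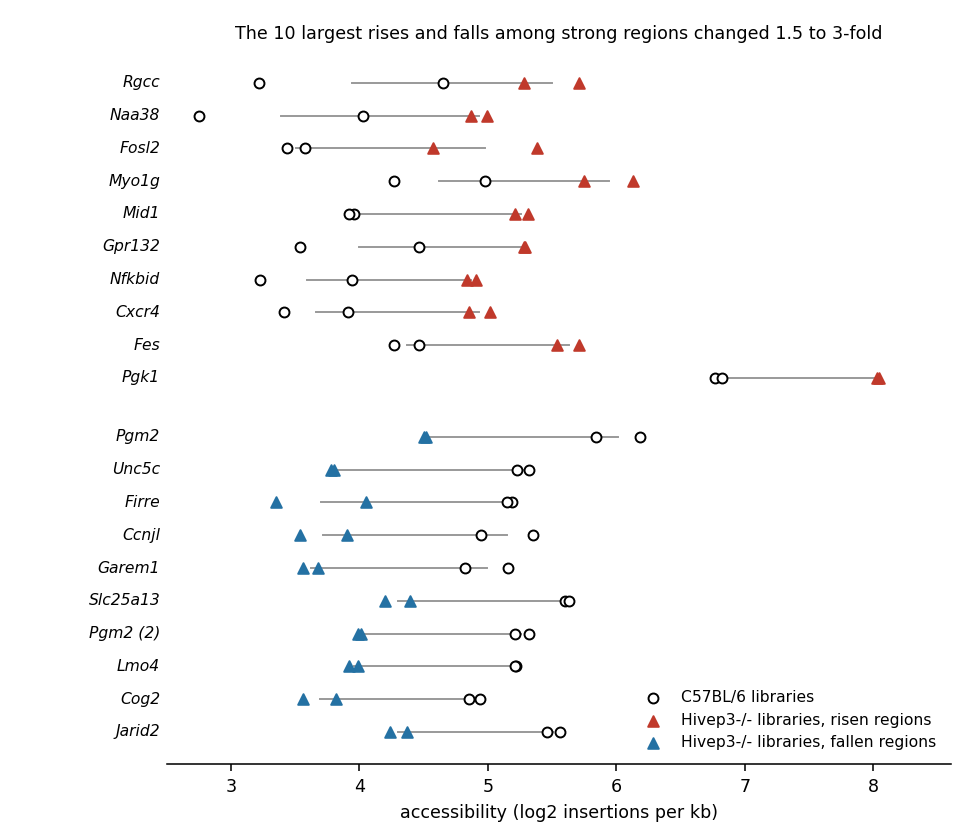
Log2 insertions per kb in each of the 4 iNKT17 libraries at the 10 largest rises and 10 largest falls among strong regions, 1 row for each region, with C57BL/6 and Hivep3-/- libraries in different colours. No region shows overlap between genotypes, which held for every called region, and grey lines join the genotype means. Pgk1 has the highest values (6.77 and 6.82 against 8.03 and 8.04).

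The 5 largest rises and 5 largest falls of at least 3-fold lay at few loci. The largest rise was at an exon of Camk2b, a calcium/calmodulin-dependent kinase subunit known mainly from neurons, which went from -1.91 and 0.44 to 3.78 and 3.35 (change 4.30 ± 0.56, adjusted p = 0.00338). An intronic region of the same gene at chr11:6010730-6011229 went from -0.21 and 0.10 to 3.74 and 3.68 (change 3.76 ± 0.29, adjusted p = 7.81e-05) and another at chr11:6005620-6006119 from 0.97 and 0.64 to 4.03 and 4.01 (change 3.22 ± 0.25, adjusted p = 8.19e-05). In all, 6 of 12 tested regions at Camk2b rose within 11.2 kb, and 11 of 12 had a positive change. The rise was shared, with 5 risen regions at the locus in iNKT1 and 5 in iNKT2 cells. Over this run of rises the median change was 2.98 in iNKT17, 2.05 in iNKT1 and 2.87 in iNKT2 cells. The other 2 of the 5 largest rises were in introns of Cd247, which encodes the ζ chain of the T cell receptor complex (3.55 and 3.10). The largest falls were intergenic, at 2 regions of the chromosome 5 stretch between Rell1 and Pgm2. One went from 2.60 and 2.30 to -3.06 and -2.58 (limma, change -5.27 ± 0.66, adjusted p = 0.00245) and the other from 4.80 and 4.61 to -0.10 and -0.55 (change -5.03 ± 0.35, adjusted p = 4.11e-05). Over the run of 5 falls in this stretch the median change was -1.94 in iNKT17, -3.02 in iNKT1 and -2.5 in iNKT2 cells. An exon of Prdm10 went from 2.60 and 2.05 to -0.78 and -2.58 (change -4.01, adjusted p = 0.00578), an intron of Akap6, an anchoring protein for kinase A, from 2.79 and 3.02 to -1.52 and -0.55 (change -3.94, adjusted p = 0.00219), and an intergenic region near Rims2 changed by -3.75 (adjusted p = 0.0385). The Rims2 call was lost without C57BL/6 replicate 1 (adjusted p = 0.151), C57BL/6 replicate 2 (0.187) or Hivep3-/- replicate 2 (0.170). Both Hivep3-/- libraries at the first of these falls, and Hivep3-/- replicate 2 at Prdm10 and Rims2, sat at the library's lowest value to 2 decimals, so that these fitted changes depend on how zeros were offset.

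Some called regions had called neighbours of the same direction, with no matching share counted over all tested regions. Runs of at least 4 called regions no more than 50 kb apart, a description chosen after the values were seen, numbered 23 for rises with 137 regions (14.0% of rises) and 15 for falls with 84 (9.56%). No run held a region called the other way. Of 15024 protein-coding loci with a tested region (gene body with 10 kb either side), 741 had a risen region, 591 a fallen one and 24 both, while 53 had 3 or more rises and 23 had 3 or more falls.

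Coro2a, which encodes a coronin of the actin cytoskeleton, had the second most risen regions after Cd247. All 27 tested regions at the locus had a positive change, with a median of 0.90, and 12 rose. At the strongest change, an internal promoter region 35.1 kb inside the gene, log2 accessibility was 0.06 and 0.35 in C57BL/6 and 3.49 and 3.02 in Hivep3-/- cells (change 3.05 ± 0.28, adjusted p = 0.000417). An intronic region next to the 5′ end went from 2.29 and 2.16 to 3.53 and 3.66 (change 1.37, adjusted p = 0.00677). The medians at the locus were 0.08 in iNKT1 and -0.19 in iNKT2 cells, where 0 regions rose in either subset by limma, 0 had a positive change at an unadjusted p under 0.05, and 4 fell in iNKT2 cells. The change differed from that in iNKT1 cells at 6 regions and from that in iNKT2 cells at 14.

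Other loci with many risen regions were Capzb (7 of 17 tested), an actin capping protein subunit, Zfp536 (7 of 10), a zinc finger gene, Vps37b (5 of 21), a sorting complex subunit, Laptm5 (5 of 18), a lysosomal protein of lymphocytes, and Rara (5 of 33), the retinoic acid receptor α. Stard3nl had 5 of 9 and neighbours the T cell receptor γ genes, and its run of 9 rises extended into Tcrg-C4. Olfr56 had 7 of 30 in a cluster of closely related interferon-induced genes, where reads of near-identical copies cannot be told apart. Runs of rises also covered Dusp5 (4, median change 1.60 over 5 tested regions), a phosphatase of ERK, Il4ra and Il21r together (6), and Cd5 (4).

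**Figure D3:**
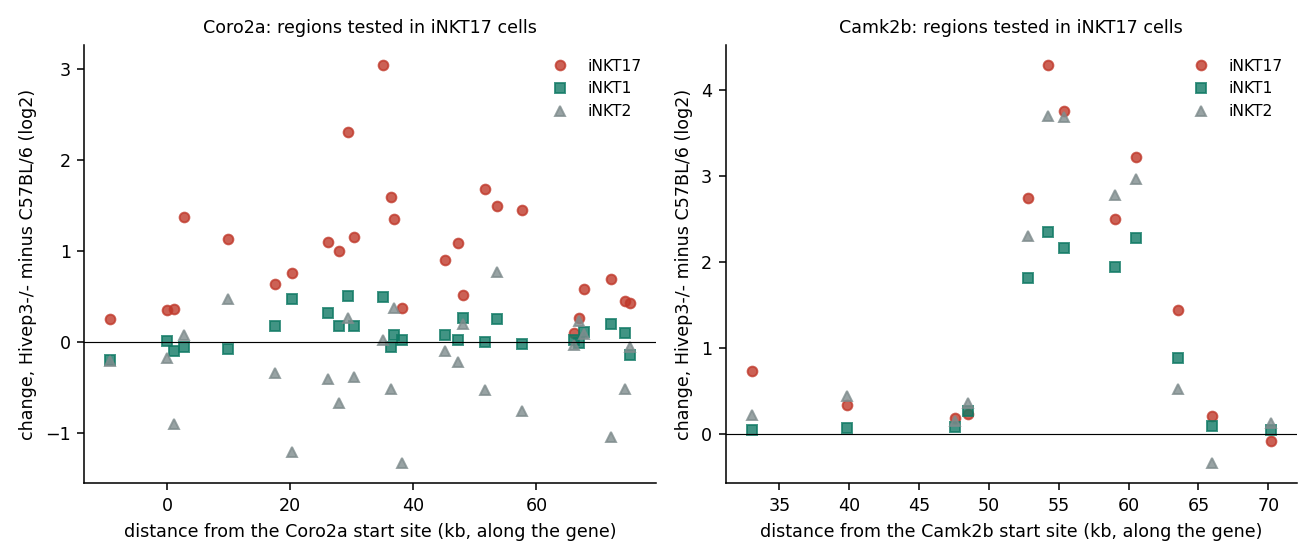
Change in Hivep3-/- against C57BL/6 (log2 of the ratio, y axis) at the regions of Coro2a (left) and Camk2b (right) tested in iNKT17 cells, plotted by distance from the gene's start in kb along the gene (x axis), with iNKT17 changes as circles, iNKT1 as squares and iNKT2 as triangles. At Coro2a the iNKT17 points lie above 0 throughout (27 of 27 tested) while the medians over the regions tested in iNKT1 and in iNKT2 cells are 0.08 and -0.19.

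The falls ran along other genes. Kirrel3, a cell adhesion molecule, had 6 fallen of 8 tested regions, all 8 with a negative change and a median of -1.91. Inpp4b, a phosphoinositide phosphatase, had 7 of 19 over 432 kb (median -0.45), and Akap6, Ptpn5, Galnt9, Msi2 and Maml3 had 4 or 5 each. Gm20388 also counted 7 falls, but its annotation spans 328 tested regions of other genes, of which 4 rose. A run of 6 falls surrounded Agfg1, which encodes a nucleoporin-related trafficking protein. At a strong intergenic region 3.07 kb before its start site, noticed after the values were seen, log2 accessibility was 5.77 and 5.86 in C57BL/6 and 3.70 and 4.05 in Hivep3-/- cells (change -1.94 ± 0.12, adjusted p = 1.5e-05). The change there was -0.52 in iNKT1 and 0.02 in iNKT2 cells, and it differed from both (differences -1.43, adjusted p = 0.00199, and -1.96, adjusted p = 0.00106). The Agfg1 promoter itself was at 4.84 and 5.64 against 4.97 and 5.55 (adjusted p = 0.988).

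The Il4 and Il13 cytokine genes, which share a locus with Rad50 and Kif3a on chromosome 11, had a run of 5 falls over 72.4 kb. All 8 tested regions assigned to Il13 had a negative change (median -0.48) and 2 fell, and Il4 had 2 falls among 11 (median -0.30). Cd4, the co-receptor gene that iNKT17 cells largely silence, had 3 falls among 6 regions, all of them negative (median -0.50).

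On the X chromosome, 19 of 25 tested regions at Firre, a long non-coding RNA, fell (median -1.03) and all 4 at Xist fell (median -1.58). At the strongest Xist region the values were 5.93 and 6.13 against 4.58 and 4.01 (change -1.73, adjusted p = 0.00232). The medians were of the same sign in the other subsets, -1.04 and -0.60 at Firre and -1.35 and -1.23 at Xist. The sexes behind each library are not given in the labels, so the part of a different mix of sexes was not tested. Firre and Xist together made up 23 of the 28 X-linked falls.

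Gene lists were compared by the share of their regions that were called, beside 1.81% risen and 1.62% fallen over all tested regions and a median change of -0.01. In refits the risen share over all tested regions was 0.375% without C57BL/6 replicate 1, 0.781% without Hivep3-/- replicate 2 and 3.07% with the replicate block. The T cell receptor signalling list had 49 rises and 5 falls among 541 regions (9.06% risen, median change 0.15). Cd247 contributed 22 of the rises, and without it 27 of 509 rose (5.30%, median 0.13). Ptprc, which encodes CD45, had 3 rises among 16 regions and the receptor α constant gene Trac 3 of 17. A promoter region of Zap70, the kinase recruited by the ζ chain, went from 0.57 and 1.38 to 2.30 and 3.40 (limma, change 1.88 ± 0.40, adjusted p = 0.0291). The mean of this region over the 4 libraries was under 5, so it entered the test only through its Hivep3-/- level. An intron of Cd6, a scavenger receptor that dampens T cell receptor signals, went from 1.60 and 2.05 to 2.84 and 3.16 (change 1.18, adjusted p = 0.0271), where iNKT1 and iNKT2 cells changed by -0.19 and -0.14 (differences 1.37 and 1.32, adjusted p = 0.0690 and 0.0839). Both calls were lost without C57BL/6 replicate 1 (adjusted p = 0.236 and 0.217), and without that library the list had 17 rises (3.13%). Without Hivep3-/- replicate 2 it had 28 (5.18%).

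The NF-κB pathway list had 15 rises and 0 falls among 215 regions by limma (6.98% risen, median 0.19), and 5 regions had a negative change at an unadjusted p under 0.05. The rises lay at Icam1, Map3k14, Nfkb1, Nfkbid and Traf1 with 2 each and at Birc3, Tnfaip3, Tnfrsf1b, Tnip1 and Traf3 with 1 each. All 12 tested regions of Tnfaip3, the ubiquitin-editing inhibitor A20, had a positive change (median 0.47). An intron of Tnfrsf1b, the gene of TNF receptor 2, went from 0.82 and 1.43 to 3.05 and 2.61 (limma, change 1.70 ± 0.25, adjusted p = 0.00647), where iNKT1 cells changed by 0.04 (difference 1.67, adjusted p = 0.0350). The mean of the Tnfrsf1b region over the 4 libraries was under 5, so it entered the test only through its Hivep3-/- level. The promoter of Traf1, an adaptor of TNF receptors and a known NF-κB target, went from 2.70 and 3.38 to 4.05 and 4.53 (change 1.25, adjusted p = 0.0251), and Icam1, an adhesion molecule, from 1.35 and 2.20 to 3.16 and 3.82 at an intronic region (change 1.72, adjusted p = 0.0899). Only the Tnfrsf1b region of these kept its call without C57BL/6 replicate 1 (adjusted p = 0.0682). The list had 1 rise without C57BL/6 replicate 1, and its 0.465% stood near the 0.375% of all regions. Without Hivep3-/- replicate 2 it had 4 (1.85%), without the other 2 libraries 18 and 19, and with the replicate block 24 rises and 1 fall.

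Cytokine receptors and STATs had 26 rises and 3 falls among 352 regions (7.39% risen, median 0.16). All 12 regions at Il4ra had a positive change and 4 rose, and at Il21r all 14 were positive and 2 rose. An intron of Il2ra, which encodes CD25, went from 4.52 and 4.84 to 5.54 and 5.75 (change 0.96 ± 0.13, adjusted p = 0.00515) and kept its call whichever library was left out (highest adjusted p 0.0590). An intron of Il12rb2, the IL-12 receptor chain, fell from 2.55 and 2.16 to 1.41 and 0.40 (limma, change -1.45, adjusted p = 0.0130). The mean of that region over the 4 libraries was under 5, so it entered the test only through its C57BL/6 level. The list had 6 rises without C57BL/6 replicate 1 (1.72%), and without Hivep3-/- replicate 2 it had 15 (4.30%). With the replicate block 5 of its regions fell.

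The calcium list had 14 rises among 251 regions (5.58%) and 3 falls, with 6 rises at Camk2b and 3 at Camk4, a kinase of T cells. It had 8 rises without C57BL/6 replicate 1, 7 without Hivep3-/- replicate 2 and 9 without Hivep3-/- replicate 1. TGF-β and BMP signalling had 9 rises and 1 fall among 215 (4.19%, median 0.10). They included an intron of Smad3 that holds the κB letters printed above, at 3.49 and 3.40 against 4.42 and 4.83 (change 1.18 ± 0.19, adjusted p = 0.00972), and the fall was in Acvr1, an activin receptor (change -1.29, adjusted p = 0.0241). That list had 1 rise without C57BL/6 replicate 1 (0.467%) and without Hivep3-/- replicate 2 it had 4, while the replicate block gave 14 rises and 2 falls. TNF family genes had 5 rises and 0 falls among 134 regions by limma (3.73%, median 0.13), and 2 negative changes at an unadjusted p under 0.05. They included a promoter region near Tnfrsf18, which encodes GITR, at 5.24 and 5.34 against 6.08 and 6.49 (change 1.00, adjusted p = 0.00561). That list had 2 rises without C57BL/6 replicate 1 and 2 without Hivep3-/- replicate 2, 8 and 9 without the other 2 libraries, and 8 rises and 1 fall with the replicate block.

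Migration and egress genes had 9 rises and 0 falls among 196 regions by limma (4.59%, median 0.07), and 9 negative changes at an unadjusted p under 0.05. This became 4 rises and 1 fall without C57BL/6 replicate 1, and with the replicate block 2 regions fell. The rises were at Ccr7, Ccr8, Cd44, Gpr18, Itga4, Itgae and Itgal. A region near Ccr8, a chemokine receptor, went from 3.63 and 3.84 to 4.92 and 4.51 (change 0.98 ± 0.16, adjusted p = 0.0100), and rose by 2.04 in iNKT2 cells. At Ccr9, a thymic homing receptor, 0 of 7 regions were called in iNKT17 cells by limma, 1 had a negative change at an unadjusted p under 0.05, and the lowest change was -0.60 (adjusted p = 0.214). AP-1, Egr and Nr4a genes had 8 rises and 2 falls among 208 regions (3.85%), 4 of the rises at Fosl2, while the promoter of Fos, the classical AP-1 partner, fell from 5.64 and 5.21 to 4.88 and 4.46 (change -0.75, adjusted p = 0.0467). The Fos call was lost without C57BL/6 replicate 1 (adjusted p = 0.359) or Hivep3-/- replicate 2 (0.247). Without C57BL/6 replicate 1 that list had 0 rises and 0 falls by limma, with 16 positive and 4 negative changes at an unadjusted p under 0.05. It had 2 rises without Hivep3-/- replicate 2 (0.957%), 5 without either of the other 2 libraries and 17 with the replicate block.

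Genes of the subset's own programme had called shares below those of all regions. The type 17 programme had 3 rises and 3 falls among 349 regions (0.860% each, median 0.01), at Irf4, Maf and Tmem64 and at Rora and Zbtb16. Without Hivep3-/- replicate 1 it had 7 rises and 8 falls (2.01% and 2.29% against 1.90% and 2.01% of all regions), and with the replicate block 10 and 5. An intron of Rora, which encodes a nuclear receptor of type 17 cells, fell from 2.39 and 2.57 to 0.74 and 1.35 (limma, change -1.43 ± 0.32, adjusted p = 0.0367). The mean of this Rora region over the 4 libraries was under 5, so it entered the test only through its C57BL/6 level. There iNKT1 cells changed by 0.22 (difference -1.65, adjusted p = 0.0909). Of the 41 tested regions at Rora 26 had a positive change, and the median was 0.09. At Zbtb16, which encodes PLZF, 2 of 81 tested regions fell, 19 had a positive change and the median was -0.21. The region 65 kb from a start site went from 4.02 and 3.91 to 3.07 and 2.75 (change -1.06, adjusted p = 0.0252). Each of these calls was lost without C57BL/6 replicate 1 (adjusted p = 0.163 for Rora and 0.180 for Zbtb16). Transcription factors of innate T cells had 6 rises and 7 falls among 595 regions (1.01% risen, median 0.01), 3 rises and 1 fall without C57BL/6 replicate 1, 8 and 14 without Hivep3-/- replicate 1, and 19 and 11 with the replicate block. The falls included 1 region each at Runx1, Runx2 and Runx3, the last from 2.86 and 2.94 to 1.59 and 1.23 (limma, change -1.49, adjusted p = 0.0121). There iNKT1 cells changed by 0.64 (difference -2.13, adjusted p = 0.0109). Positive changes were seen at 15 of 20 tested regions of Runx3 (median 0.17), 13 of 31 of Runx1 (-0.04) and 4 of 19 of Runx2 (-0.11).

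Genes of the other programmes had small lists. The type 1 list had 5 rises and 1 fall among 69 regions (7.25% risen), 3 of them at Prf1, the perforin gene, whose 3 tested regions all rose. The Prf1 promoter went from 2.49 and 2.39 to 3.80 and 3.54 (change 1.22 ± 0.21, adjusted p = 0.0126), against changes of 0.08 in iNKT1 and -0.58 in iNKT2 cells (differences 1.14, adjusted p = 0.0786, and 1.80, adjusted p = 0.0140). The type 2 list was divided, with 9 rises among 134 regions (6.72%, median 0.13) at receptor genes and Gata3 and 6 falls at Il4, Il13 and Cd4, of which the region in both cytokine loci counts once. Stage 0 genes had 3 rises and 1 fall among 110, BCL2 family genes 4 and 1 among 84, and HIVEP and class IIa deacetylase genes 3 and 1 among 101. With the replicate block stage 0 genes had 6 and 3 and HIVEP and deacetylase genes 7 and 1. Without C57BL/6 replicate 1 the rises were 2 in the type 1 list, 3 in the type 2 list and 1 among BCL2 family genes, and without Hivep3-/- replicate 2 they were 2 in the type 1 list. B cell (24 regions) and myeloid (16 regions) lists had 0 calls by limma, with 4 and 1 regions at an unadjusted p under 0.05, and their medians were -0.01 and -0.08.

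microRNA processing genes had 5 rises and 2 falls among 103 regions (4.85% risen). Both falls were at Drosha, the nuclear microRNA-processing nuclease, where an intron went from 6.67 and 6.63 to 5.95 and 6.00 (change -0.68 ± 0.07, adjusted p = 0.00125). The iNKT17 change lay between those of the other subsets, -1.28 in iNKT1 and 0.06 in iNKT2 cells, and differed from both (differences 0.61, adjusted p = 0.0117, and -0.73, adjusted p = 0.00663). An intron of Ago2, the slicing Argonaute, rose from 4.49 and 4.88 to 5.34 and 5.51 (change 0.74 ± 0.12, adjusted p = 0.00855) against -0.04 in iNKT1 and 0.02 in iNKT2 cells (adjusted p of the differences 0.0343 and 0.0548). Glycolysis and lipid genes had 3 rises and 2 falls among 155 regions and housekeeping genes 3 and 2 among 105, while with the replicate block the first had 7 and 3. The microRNA list had 2 rises without C57BL/6 replicate 1, 1 without Hivep3-/- replicate 2 and 3 without C57BL/6 replicate 2, and with the replicate block 4 of its regions fell. A list of genes whose transcripts the study singled out had 28 rises and 11 falls among 317 regions, with 22 of the rises at Cd247, and 13 and 3 without C57BL/6 replicate 1. That list was chosen by the study on cells of the same genotypes and is not independent. It includes Hdac7, with 1 fall at an exon of the neighbouring Vdr (change -1.87, adjusted p = 0.0165).

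**Figure D4:**
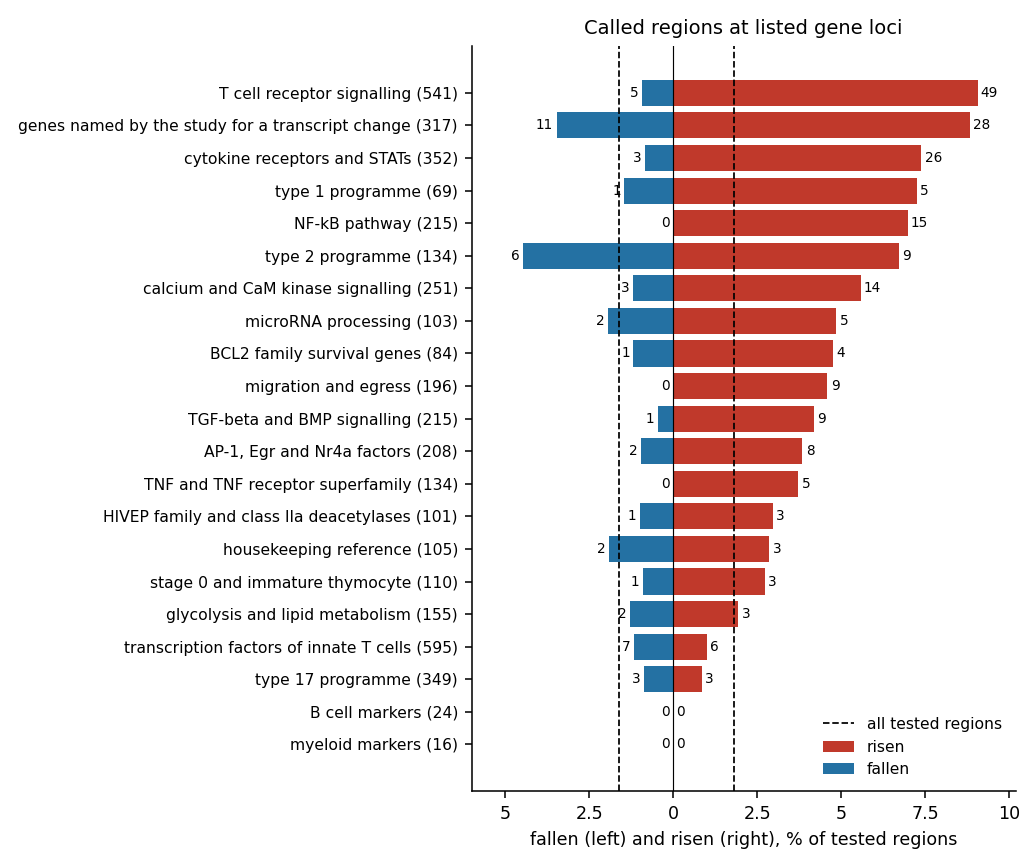
Percent of tested regions called fallen (bars to the left) and risen (bars to the right) in Hivep3-/- iNKT17 cells for each gene list, with the number of tested regions in brackets and dashed lines at the shares over all tested regions (1.62% and 1.81%). T cell receptor signalling (9.06%), cytokine receptors (7.39%) and the NF-κB pathway (6.98%) extend to the right with few falls, while the type 17 programme (0.860% each way) stays under both lines.

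κB letters were the pattern most unequally spread between rises and falls. GGGANTTTC was in 2.32% of tested, 7.54% of risen (74 regions) and 1.59% of fallen regions (14), and in 8.75% of strong rises and 1.19% of strong falls. The looser GGGNNTTTC, which holds the first pattern, was in 8.72%, 20.5% and 7.28%. Outside promoters the shares for GGGANTTTC were 2.58%, 7.52% and 1.35%, and 7.16% of the 838 tested regions with the letters rose. Their median change was 0.16 in iNKT17, 0.045 in iNKT1 and 0.156 in iNKT2 cells. By library, the median deviation of these 838 regions from their 4-library mean was -0.129 and -0.034 in C57BL/6 and 0.063 and 0.121 in Hivep3-/- cells. For all regions outside promoters it was 0.009 and -0.011 in C57BL/6 and 0.040 and -0.016 in Hivep3-/- cells. C57BL/6 replicate 2 and Hivep3-/- replicate 1 thus lay close to the values of all regions, and the separation was widest in the other library of each genotype. Among rises the share with GGGANTTTC was 5.39% without C57BL/6 replicate 1, 8.37% without C57BL/6 replicate 2, 8.78% without Hivep3-/- replicate 1 and 5.18% without Hivep3-/- replicate 2, and among falls it was 1.42% to 2.64%.

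Most of the other patterns had a higher share among falls than over all tested regions. AACCACA, the core of Runx sites, was in 26.6% of falls, 16.4% of rises and 16.6% of tested regions, and in 22.6% of strong falls and 19.8% of strong rises. AGATAA, which GATA factors bind, was in 28.2%, 22.3% and 19.6%, and in 32.1% of strong falls. TCAAAGG, a TCF pattern, was in 12.3%, 9.16% and 9.05%, and in 15.5% of strong falls. Outside promoters, where most calls lie, the Runx letters were in 28.5% of falls and 21.6% of tested regions and the GATA letters in 29.0% and 24.3%. Among strong falls outside promoters the shares were 22.6% for the Runx and 29.3% for the GATA letters, so the Runx excess was small there. CCGGAAG, an ETS pattern of promoters, was in 9.04% of tested regions, 3.67% of rises and 5.12% of falls. TGANTCA (AP-1) was in 18.9% of rises and 21.7% of falls against 15.5%, but in 14.9% of strong falls. CAGCTG (E-box) was in 28.6% of rises and 29.4% of falls against 26.9%. TTTTCCA (NFAT) was in 11.6% and 11.5% against 9.78%, TGCTGA (Maf) in 35.1% and 40.4% against 33.4%, and AGGTGTGA (T-box) in 3.87% and 2.50% against 2.39%. Outside promoters the AP-1 letters were in 19.2% of rises and 23.1% of falls against 19.5%, and the NFAT letters in 12.2% and 11.2% against 10.9%. There the T-box letters were in 2.43% of falls against 2.82%, and the ETS letters in 4.72% of both. The TCF, E-box and Maf shares among falls stayed above those of tested regions.

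The direction of change in iNKT17 cells differed between regions more open in C57BL/6 iNKT1 cells and regions more open in iNKT2 cells. Regions were classed by C57BL/6 iNKT1 against iNKT2 cells, with no iNKT17 library, and 4273 (7.33%) were at least 3-fold higher in iNKT1 and 5082 (8.71%) in iNKT2 cells. Of the first class 1721 were tested in iNKT17 cells, and 9.06% rose and 1.05% fell in Hivep3-/- (median change 0.21). Of the second class 2998 were tested, and 0.967% rose and 9.64% fell (median -0.22). Regions in neither class had 1.61% rises and 1.15% falls (median -0.01). The median linear level of the first class was 8.43 and 8.72 insertions per kb in C57BL/6 and 9.99 and 9.99 in Hivep3-/- libraries. That of the second class was 12.8 and 12.9 against 10.9 and 10.8. These medians did not overlap between genotypes in either class, but non-overlap separates little with 2 libraries a group. Taken singly, 44.7% of all tested regions showed it too. Without C57BL/6 replicate 1 the shares were 3.23% risen and 0.462% fallen in the first class and 0.266% and 2.33% in the second, and without Hivep3-/- replicate 2 they were 4.16% and 0.741%, and 0.499% and 5.09%. With the replicate block they were 14.4% and 1.98%, and 2.13% and 15.1%.

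**Figure D5:**
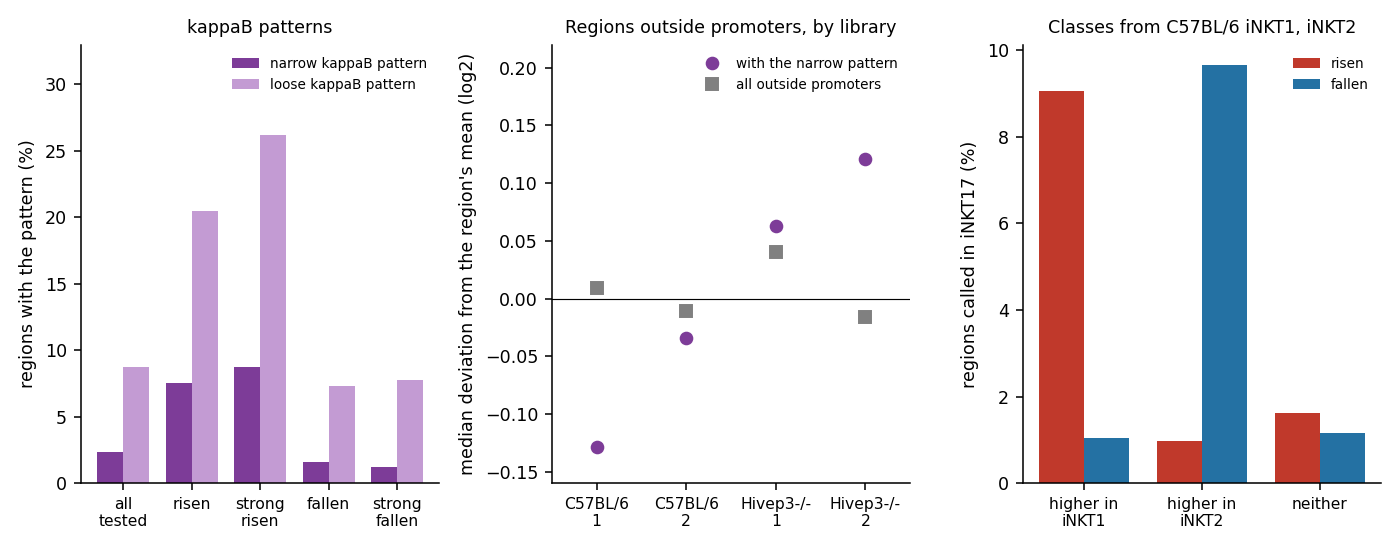
Left, percent of tested, risen and fallen regions, and of strong risen and fallen ones, that hold the narrow (GGGANTTTC) and loose (GGGNNTTTC) κB patterns. Middle, median deviation from the 4-library mean in each library (log2) for regions outside promoters with the narrow pattern (circles, -0.129 to 0.121) and for all regions outside promoters (squares). Right, percent of regions risen and fallen in Hivep3-/- iNKT17 cells by class of the region in C57BL/6 iNKT1 against iNKT2 cells, with 9.06% risen among regions higher in iNKT1 and 9.64% fallen among regions higher in iNKT2.

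Many of the iNKT17 changes had the same sign in the other subsets, which may share transposition reactions with the iNKT17 libraries of the same genotype and number. Of the 982 rises, 78.7% had a positive change in iNKT1 and 83.4% in iNKT2 cells, and of those tested there 21.2% and 37.4% also rose. Of the 879 falls, 28.2% and 18.4% had a positive change, and 25.8% and 31.5% of those tested also fell. Over all tested regions 46.5% had a positive change in iNKT1 and 52.0% in iNKT2 cells. Among them rises made up 3.92% in iNKT1 and 5.57% in iNKT2 cells and falls 2.77% and 4.38%. In iNKT1 cells 8.05% of the iNKT17 falls rose.

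Tests of the difference between subsets called 2088 regions for iNKT17 against iNKT1 cells (3.45% of 60543) and 1863 for iNKT17 against iNKT2 cells (3.09% of 60297). With the replicate block these were 3819 and 4065, and with genotype and number together as a random block 3543 and 3647. In most of them the change was larger in the other subset (73.1% and 77.3%), and 17.2% and 13.1% were called in iNKT17 cells. Of the 263 strong rises, 41 differed from iNKT1 and 38 from iNKT2 cells, and of the 168 strong falls 42 and 29. Among regions so called with a change in iNKT17 cells, Cd44, the activation and homing receptor, had an intronic rise from 2.94 and 3.32 to 4.46 and 4.08 (change 1.14 ± 0.20, adjusted p = 0.0129) against -0.28 in iNKT1 and 0.09 in iNKT2 cells. An exon of Maf, a factor of type 17 cells, had a rise from 2.90 and 2.33 to 3.74 and 3.35 (change 0.93, adjusted p = 0.0959) against -0.85 in iNKT1 cells (difference 1.78, adjusted p = 0.0340). Of the 230 called regions behind the values above, most lost the call without C57BL/6 replicate 1 and many lost it without Hivep3-/- replicate 2. Smaller numbers lost it without C57BL/6 replicate 2 or without Hivep3-/- replicate 1. With only the 4 iNKT17 libraries in the fit 74 lost it, with no trend of the spread 63 and with a pseudocount of 5 60. Under the replicate block 0 lost the call. With a filter on the mean of the 4 libraries, 193 of 231 regions (the Hivep3 start site included) were still tested, and 5 of these lost the call.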

How the data were processed

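ATAC-seq was measured in 12 libraries, 2 for each of the 6 groups of subset and genotype. Per the methods, the authors trimmed reads to 50 bases (Trimmomatic 0.39 in the submitters' processing notes), aligned them to mm10 with the ENCODE pipeline, merged the peaks of all replicates without the Y chromosome and blacklisted intervals, and counted insertions in 500 bp regions. The deposited values are log2 insertions per kb after the authors' voom normalization, 1 column for each library. Counts were not used here and depth is unknown, so the number of libraries limits precision.

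Groups came from the titles. limma 3.58.1 (R 4.3.3) was fitted to the log2 values with 1 mean for each group over all 12 libraries and a trend of the spread (6 residual and 7.17 prior degrees of freedom), after a filter on a linear mean (2 to the power of the value) of at least 5 in either genotype. P-values were Benjamini-Hochberg adjusted over 54311 regions, and a call needed an adjusted p under 0.1 with 1.5 or 3-fold. Errors are standard errors of the fit. An exact permutation test of 2 libraries against 2 cannot go below p = 0.333. The fit was tested on simulated data.

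Regions were placed by the GENCODE annotation of the same build: promoter within 1000 bp of a start site, otherwise exon, intron or intergenic, and at a gene's locus when within 10 kb of its body. The regions named were those of Hivep3, the 10 largest changes each way among strong regions and 5 among those over 3-fold, the 10 loci with most calls each way, up to 4 called genes for each of 21 lists, Cd247, Ccr9, Drosha, Zbtb16, Hdac7 and Xist, and the 5 largest differences between subsets each way. Members, lists and rules were chosen with earlier results of these data known. Agfg1, the Coro2a region described, the runs and the printed sequences were chosen after the values were seen. Clec7a could not be placed. Results at 2 genes are not reported here.

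Replicate numbers recur in every group. The titles give the subsets of a genotype the same mouse numbers, and the methods combine subsets for transposition, which ties subsets within a genotype but not C57BL/6 to Hivep3-/- libraries. Deviations of same-numbered libraries correlated in all 15 pairs of groups (0.148 to 0.234), so a replicate block was fitted beside the fit without it.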

Additional observations from a re-analysis of the deposited data

Results flagged for a closer look

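Each value here subtracts the change of another subset from that of iNKT17 cells, on the log2 scale, at a region where limma called that difference (threshold 0.1 on the adjusted p, with a difference of 1.5-fold or more). Such regions make up 3.45% of those tested against iNKT1 and 3.09% of those tested against iNKT2 cells.

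Among regions called in iNKT17 cells, the change was higher than in iNKT1 cells at Maf (1.78), Tnfrsf1b (1.67), Camk2b (1.60), Cd44 (1.42), Cd6 (1.37), the Ubac2 intron beside Gpr18 (1.31), Tmem64 (1.24), Prf1 (1.14), Ago2 (0.78), Tnfrsf18 (0.70), 1 Cd247 region (0.79), Drosha (1.15 and 0.61) and the region near Lmo4 (2.71). At Drosha and Lmo4 both subsets had negative changes, the smaller in iNKT17 cells. It was lower at Acvr1 (-2.29), Runx3 (-2.13), Bach2 (-1.86), Cog2 (-1.76) and Rora (-1.65). Against iNKT2 cells it was higher at Prf1 (1.80), Fes (1.56), Cd6 (1.32), Unc5c (1.29), 1 Cd247 region (1.20), Cd44 (1.05) and Ago2 (0.72). It was lower at the region between Slc6a7 and Camk2a (-2.32), another Cd247 region (-1.19), Drosha (-1.08 and -0.73), Ccr8 (-1.06) and the Ncbp3 exon beside Itgae (-1.0). The Coro2a region differed by 2.54 from iNKT1 and 3.03 from iNKT2 cells and the Agfg1 region by -1.43 and -1.96, both chosen after their values were seen.

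The largest differences at strong regions lay where the other subset changed and no change was called in iNKT17 cells. Against iNKT1 cells these were Npnt (-5.51), Dapl1 (-4.99), Lpar3 (-4.90), Ly86 (-3.84) and Wfdc11 (-3.80), where iNKT1 cells gained accessibility, and Mtx2 (3.75), Plet1 (3.14), Palld (3.03), Cpeb2 (3.01) and Iltifb (2.95), where they lost it. Against iNKT2 cells they were Dlg2 (-3.78), Klf4 (-3.68), Snx1 (-3.35), Vapa (-3.33) and Slc9a9 (-3.14), and in the other direction Erich6 (3.32), Blk (3.31), Myo16 (2.94), Serp2 (2.82) and Pfdn1 (2.79).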

How the results depend on the processing

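The counts that moved by over 1.5 times are given here. Strong rises and falls are those of 1.5 to 3-fold, and differences are regions whose change differed from that in iNKT1 and in iNKT2 cells, in that order. An adjusted p under 0.05 gave 532 rises and 469 falls, with 1047 and 812 differences. With the replicate block there were 1667 rises, 1435 falls and 3819 and 4065 differences, and with the block and a GC correction 1613, 1471, 3791 and 4088; the block moved no other count named here by over 1.5 times, and its counts for the gene lists stand beside them. With genotype and replicate number together as a random block there were 3543 and 3647 differences. Using only the 4 iNKT17 libraries gave 633 rises, and no trend of the spread 158 strong rises. A pseudocount of 1 gave 79 changes of at least 3-fold and 2799 differences from iNKT2 cells, and one of 5 gave 8 and 3496. A filter on the mean of the 4 libraries left 82 changes of at least 3-fold, and no filter 469. With strong set at 10, 549 strong regions rose and 464 fell, and at 50 these were 50 and 19. Leaving out 1 library gave 204 to 1036 rises, 227 to 1092 falls, 106 to 261 changes of at least 3-fold, 53 to 343 strong rises, 58 to 244 strong falls, and 683 to 2047 and 629 to 2098 differences. With a pseudocount of 5 the differences from iNKT1 cells at Mtx2 (-0.11) and Iltifb (-0.05) turned sign; the cause was not tested. The library whose omission gave the fewest rises and falls was C57BL/6 replicate 1, and without Hivep3-/- replicate 1 the changes of at least 3-fold were 261. Counts for the lists, letter patterns and classes under other settings were chosen after seeing the data. Read depth is not in the files, so what it limits could not be measured.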
